A study of Homo sapiens with 6 samples.

Results

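The genes described here are 9 widely used transcriptional targets of the tumour suppressor p53, namely CDKN1A, MDM2, GDF15, ZMAT3, FAS, TP53INP1, RRM2B, FDXR and TP53I3. They were taken by symbol from a list, without regard to their values, and all 9 were found among the 26195 genes measured over the 6 libraries. The cells were PC9, an established line from a human lung adenocarcinoma whose EGFR is mutated to an active form. Their messenger RNA was counted cell by cell with Drop-seq, in which beads in droplets mark every captured molecule with its own identifier (UMI), with 1 library for each of 6 conditions. Untreated cells had neither virus nor drug, and scrambled control cells carried the lentivirus pLVTHM with a scrambled shRNA and had no drug. The other 4 libraries received the EGFR kinase inhibitor erlotinib at 2 µM for 1 day, and in addition 6.25 µM of the KDM5 inhibitor CPI-455 for 4 days, pLVTHM with KDM5A shRNA, a pair of pLVTHM viruses against KDM5A and KDM5B, or KDM5A cDNA in a pLenti virus. KDM5A and KDM5B are histone demethylases that act on methylated lysine of histone H3. Erlotinib was begun 4, 5 and 6 days after transduction in these last 3 libraries, in the order given. Serum was 5% in the untreated and CPI-455 libraries and 10% in the transduced ones. The labels also place erlotinib in the CPI-455 library on the day after seeding, which leaves its timing within the 4 days unclear. No library had erlotinib alone, so erlotinib cannot be told apart from what accompanied it.

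In cells with intact p53, stress such as DNA damage stabilises the protein, which binds a paired sequence element near its target genes and raises their transcription. CDKN1A encodes p21, which holds cyclin-dependent kinases in check, while MDM2 encodes the ubiquitin ligase that returns p53 to a low level, so that the pathway limits itself. Other targets feed apoptosis, DNA repair and metabolism, and most of them also answer to other transcription factors.

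The sequence element is shown for the 4 targets whose window before a transcription start held it, since it is what the 9 genes are grouped by in textbooks. Windows ran from 250 bases before to 50 after each start in RefSeq (GRCh38.p14) and existed for 7 of the 9 genes. TP53INP1 and RRM2B are named only. An element was counted as 2 p53 consensus half-sites at most 13 bases apart, with at most 3 mismatches in all and the central C and G of each site kept. The half-site reads alike on both strands. Capitals mark the half-sites.
MDM2, chr12:68808873-68808992, + strand: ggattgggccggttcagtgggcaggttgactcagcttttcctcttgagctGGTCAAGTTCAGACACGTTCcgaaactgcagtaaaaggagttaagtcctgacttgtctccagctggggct
ZMAT3, chr3:179071865-179071894, - strand: ccGGGCCTGCTCcgccaaGCACATGCGCag
FAS, chr10:88991304-88991333, + strand: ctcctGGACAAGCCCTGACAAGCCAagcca
FDXR, chr17:74872996-74873025, - strand: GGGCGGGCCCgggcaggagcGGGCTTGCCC
The MDM2 element had 2 mismatches and lay inside the gene, outside annotated exons, 94 to 75 bases before the inner of its starts. The FAS and FDXR elements also had 2 mismatches and the ZMAT3 element had 3. For these 3, the element together with its flanking bases overlapped annotated exons of its own gene, and for FAS also of ACTA2. Whether the elements themselves lie in exons was not determined. A GDF15 window held an element with 3 mismatches after its start. Over all 34941 windows of the same length, 12.8% held an element by this rule anywhere in the window and 2.93% held one with at most 2 mismatches. Counted per window in the same way, 6 of the 14 windows of these genes held an element, among them overlapping MDM2 windows with the same element. The closest matches in the CDKN1A and TP53I3 windows had 4 and 5 mismatches. These matches describe letters in a window and nothing was measured at them here.

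After cells were required to have at least 500 UMIs and at most 20% mitochondrial UMIs, 2288 cells remained. Of barcodes with at least 500 UMIs, the mitochondrial limit removed 17.8% in the library labelled KDM5A and KDM5B shRNA. It removed 9.03% in the cDNA library and 0.766% to 2.42% in the others. The libraries held between 131 and 1166 cells and between 590091 and 3956647 UMIs, so that 3 UMIs, the floor used for a count of 0, corresponded to between 0.758 and 5.08 CPM (UMIs scaled to a common library total). The untreated library stood apart, with a median of 1493.5 UMIs per cell against 2985.5 to 3762.5 in the others, and with 3.52% of its barcodes ending in an unread base against 22.8% to 31.6%. Mitochondrial transcripts took 3.98% and 5.03% of UMIs without erlotinib and 7.04% to 9.18% with it. Of 15 pairs of libraries 14 shared no barcode and 1 pair, the CPI-455 library and the one labelled KDM5A and KDM5B shRNA, shared 1. All 6 epithelial markers present in the tables had UMIs in every library, and 3 markers of blood, vessel and connective tissue cells summed to 1.55 to 9.64 CPM. KDM5A stood at 81.9 CPM in the scrambled library, 56.4 with KDM5A shRNA, 41.3 in the library labelled KDM5A and KDM5B shRNA and 164 with the cDNA. KDM5B was not lower but 2.97-fold higher (95% interval 2.14 to 4.16) in the library labelled KDM5A and KDM5B shRNA than in the scrambled one, so that library is named below by its label alone. KDM5B was also 3.26-fold higher with KDM5A shRNA and 2.05-fold higher with the cDNA than in the scrambled library, and stood at 102 CPM with CPI-455 against 60.4 in untreated cells.

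With erlotinib 2 of the p53 targets rose, the autophagy and stress gene TP53INP1 and the oxidoreductase gene TP53I3. MDM2 and CDKN1A, the standard readouts of p53 activity, were not called, nor were ZMAT3, RRM2B and FDXR, and GDF15 and FAS were too sparse to test. Of the 9 genes 7 passed the filter on low counts, and 2 were called higher and 0 lower by edgeR's quasi-likelihood test at an adjusted p under 0.05. Over all 10445 genes tested 10.0% were called higher, 13.5% lower and 23.5% either way. The median log2 fold was -0.16 over the 7 targets and 0.01 over all genes tested. The test set 4 libraries against 2, and the 4 are not replicates of a condition. Its p-values thus weigh the difference against a spread that includes the KDM5 manipulations and the differences between the 2 controls. With mitochondrial genes left out of the totals the log2 folds of TP53INP1 and TP53I3 were 2.50 and 1.31, against 2.51 and 1.31 with them.

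**Figure D1:**
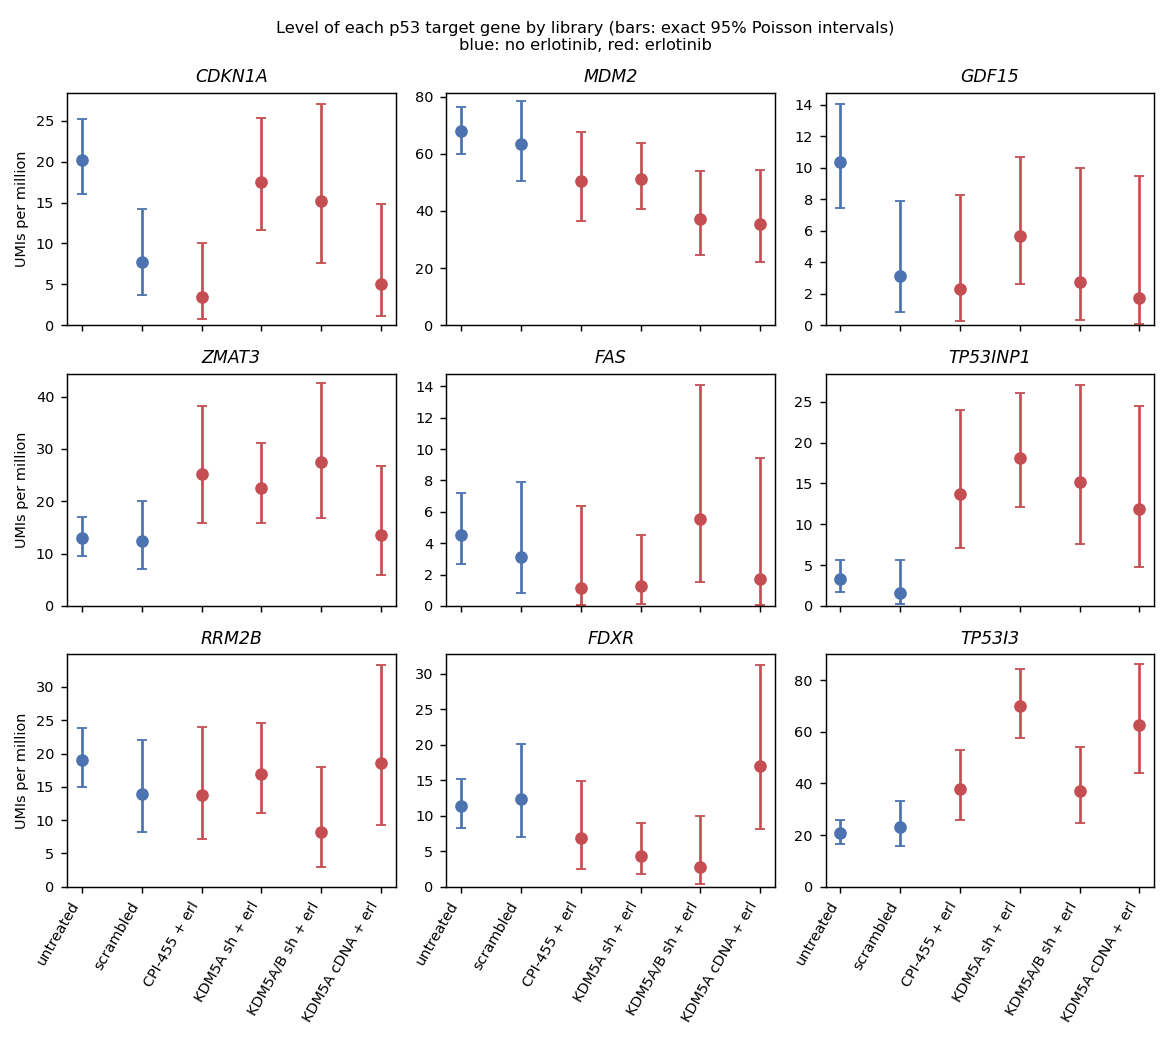
Level of each p53 target in the 6 libraries (points, CPM on a linear axis from 0, with exact 95% Poisson intervals), blue without and red with erlotinib. TP53INP1 and TP53I3 lie higher in all 4 erlotinib libraries, MDM2 lies lower, and the 4 values of CDKN1A span that of the scrambled library.

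TP53INP1 encodes a stress protein that binds kinases acting on p53 and takes part in autophagy. It stood at 3.29 CPM in untreated cells and 1.55 in scrambled cells. With erlotinib it stood at 13.7 with CPI-455, 18.2 with KDM5A shRNA, 15.2 in the library labelled KDM5A and KDM5B shRNA and 11.9 with the cDNA. Every erlotinib library was above both libraries without the drug, with no overlap. The log2 fold was 2.51, with an SE of 0.51 and an adjusted p of 0.00698 in edgeR. The gene was sparse, with 59 UMIs over the erlotinib libraries and 15 over the other 2, and their pooled ratio was 5.46 (95% interval 3.06 to 10.4, counting error only). The call held in each of the 17 alternative fits that tested the gene, with log2 folds from 2.23 to 3.23, and after thinning to 1000 UMIs per cell the gene was too sparse to test. In GENCODE v29 the gene overlaps NDUFAF6 on the opposite strand, and the sources used here do not say whether counting used strand. NDUFAF6 itself stood at 34.9 and 73.4 CPM without erlotinib and 21.3 to 37.8 with it, and in that fit it was not called (log2 fold -0.93, SE 0.36, edgeR adjusted p = 0.0811).

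TP53I3 encodes a quinone oxidoreductase linked to oxidative stress and is also called PIG3. It stood at 20.7 CPM in untreated and 23.2 in scrambled cells. With erlotinib it stood at 37.8 with CPI-455, 70.2 with KDM5A shRNA, 37.2 in the library labelled KDM5A and KDM5B shRNA and 62.7 with the cDNA. Again no erlotinib library overlapped the others, and the 4 fell into a lower and a higher pair. The log2 fold was 1.31 (SE 0.34, edgeR adjusted p = 0.0200), but the call was lost without the untreated library (1.16, adjusted p = 0.123), without the scrambled one (1.40, adjusted p = 0.0545), in the transduced libraries alone (1.31, adjusted p = 0.0907) and after thinning (1.30, adjusted p = 0.103). FAM228B, which overlaps TP53I3 on the opposite strand, stood at 8.85 and 8.50 CPM without erlotinib and 19.5 to 25.4 with it, and was itself called higher in the edgeR fit by 1.41 (SE 0.34, adjusted p = 0.0156). Reads of the 2 genes cannot be told apart where they overlap if counting ignored strand. The same limit holds for CDKN1A, FAS and MDM2, which overlap DINOL, ACTA2 and CPM, among others, on the opposite strand.

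ZMAT3 encodes a zinc finger protein that binds RNA and regulates splicing. Its levels were 12.9 CPM in untreated cells and 12.4 in scrambled cells. They were 25.2 with CPI-455, 22.6 with KDM5A shRNA, 27.6 in the library labelled KDM5A and KDM5B shRNA and 13.6 with the cDNA. All 4 were above both libraries without erlotinib, the cDNA library only barely, and the fold did not pass the test (log2 fold 0.87, SE 0.35, edgeR adjusted p = 0.0991). TP53INP1, TP53I3 and ZMAT3 were thus the 3 targets with every erlotinib library above both others, an arrangement that 18.6% of all tested genes showed. Non-overlap in either direction was found for 4 of the 7 tested targets and for 45.3% of all tested genes.

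MDM2 had 525 UMIs in all, the most of the 9. It stood at 68.0 CPM in untreated and 63.3 in scrambled cells. With erlotinib it stood at 50.4 with CPI-455, 51.4 with KDM5A shRNA, 37.2 in the library labelled KDM5A and KDM5B shRNA and 35.6 with the cDNA. The erlotinib libraries all lay below the others, as 26.7% of tested genes did, and the log2 fold of -0.53 (SE 0.23) did not pass (edgeR adjusted p = 0.126). After thinning to equal depth the fold was -0.07, nearer 0. The regulators MDM4 and PPM1D also gave no call in this fit. MDM4, a relative of MDM2 that masks the p53 activation domain, had a log2 fold of -0.23 (SE 0.29, adjusted p = 0.585). PPM1D, a phosphatase that turns the damage response off, had 0.66 (SE 0.58, adjusted p = 0.430).

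CDKN1A varied among the erlotinib libraries as widely as between treatments. It stood at 20.2 CPM in untreated and 7.73 in scrambled cells, and at 3.43 with CPI-455, 17.5 with KDM5A shRNA, 15.2 in the library labelled KDM5A and KDM5B shRNA and 5.08 with the cDNA. Untreated cells had the highest level and CPI-455 cells the lowest, so the erlotinib libraries spanned the scrambled value. The log2 fold was -0.36 (SE 0.59, edgeR adjusted p = 0.686), and it turned positive without the untreated library (0.48) and in the transduced libraries alone (0.79), without passing the test in either. The lowest values, with CPI-455 and with KDM5A cDNA, rest on 3 UMIs each.

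GDF15, a secreted cytokine of cell stress, and FAS, a death receptor, were below the filter and have no call. GDF15 stood at 10.4 CPM in untreated cells and 3.09 in scrambled cells. With erlotinib it stood at 2.29 with CPI-455, 5.64 with KDM5A shRNA, 2.76 in the library labelled KDM5A and KDM5B shRNA and 1.69 with the cDNA, and 41 of its 59 UMIs came from untreated cells. FAS stood at 4.55 and 3.09 CPM without erlotinib, and with it at 1.14, 1.25, 5.51 and 1.69 in the same order of libraries, on 30 UMIs in all. FDXR, a mitochondrial ferredoxin reductase, stood at 11.4 and 12.4 CPM without erlotinib. With the drug it stood at 6.87 with CPI-455, 4.38 with KDM5A shRNA, 2.76 in the library labelled KDM5A and KDM5B shRNA and 16.9 with the cDNA. The cDNA library was the highest of all 6 and the other 3 the lowest, and the log2 fold was -0.68 (SE 0.61, edgeR adjusted p = 0.436).

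RRM2B encodes the p53-inducible small subunit of ribonucleotide reductase, the enzyme that makes DNA precursors, and its relatives RRM1 and RRM2 serve replicating cells. RRM2B stood at 19.0 CPM in untreated and 13.9 in scrambled cells, and at 13.7 with CPI-455, 16.9 with KDM5A shRNA, 8.27 in the library labelled KDM5A and KDM5B shRNA and 18.6 with the cDNA. The groups overlapped and the log2 fold was -0.16 (SE 0.38, edgeR adjusted p = 0.793). On the log2 scale RRM1 fell by 2.88 (SE 0.34, adjusted p = 0.000437) and RRM2 by 5.42 (SE 0.51, adjusted p = 0.000205) in the same fit. Only 13 UMIs of RRM2 remained over the 4 erlotinib libraries against 799 in the others. Of the listed genes of S phase 16 of 16 were called lower, and of G2 and M 14 of 16, against 13.5% of all genes tested. The part of this fall in the results on other genes was not tested. The difference between RRM2B and its relatives was not itself tested.

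Among the CIP/KIP inhibitors, to which CDKN1A belongs, CDKN1B encodes p27. CDKN1B stood at 68.2 and 44.8 CPM without erlotinib, and at 137 with CPI-455, 120 with KDM5A shRNA, 152 in the library labelled KDM5A and KDM5B shRNA and 66.1 with the cDNA. The cDNA library lay between the 2 libraries without erlotinib, and CDKN1B was called higher by 1.10 (SE 0.32, edgeR adjusted p = 0.0303). That call was lost without the untreated (1.39), scrambled (0.86) or CPI-455 library (1.04), without the library labelled KDM5A and KDM5B shRNA (0.97), and in the transduced libraries alone (1.34). CDKN1C was too sparse to test, with 31 UMIs.

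**Figure D2:**
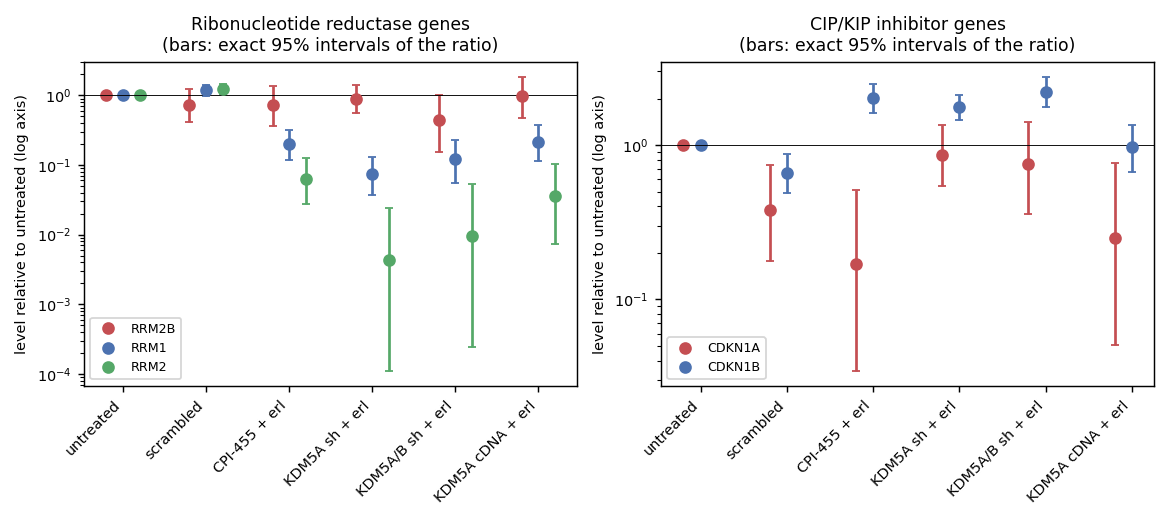
Levels relative to untreated cells on a log axis for ribonucleotide reductase genes (left) and CIP/KIP inhibitor genes (right) in the 6 libraries, with exact 95% intervals of the ratio. RRM1 and RRM2 drop in all 4 erlotinib libraries while the intervals of RRM2B include 1 in 4 of the 5 other libraries and end just below it in the library labelled KDM5A and KDM5B shRNA. CDKN1B lies above CDKN1A, with intervals that do not overlap, with CPI-455, with KDM5A shRNA and in the library labelled KDM5A and KDM5B shRNA. Their intervals overlap in the scrambled and cDNA libraries.

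A wider list of 60 other p53 pathway genes was examined in the same fit. Of these 56 were in the tables and 43 were tested, with 3 called higher and 7 lower, or 23.3%, close to the 23.5% of all genes. Their median log2 fold was -0.06. The 3 that rose were GADD45A, PLK2 and DRAM1. GADD45A, a growth arrest protein, rose by 1.76 (SE 0.36, adjusted p = 0.00802). PLK2, a polo-like kinase, rose by 1.63 (SE 0.23, adjusted p = 0.000876), and DRAM1, a lysosomal membrane protein of autophagy, by 2.65 (SE 0.42, adjusted p = 0.00195). GADD45A stood at 171 and 96.6 CPM without erlotinib and 303 to 638 with it, and lost its call without the scrambled library (1.43, adjusted p = 0.0580). By list, 2 of 9 tested arrest targets and 1 of 5 metabolic targets were called higher and none lower. Of 13 core genes 3 were called lower, of 11 apoptosis targets 2 and of 5 repair targets 2, and none higher. Over all genes tested 10.0% were called higher and 13.5% lower.

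The 7 that fell included the checkpoint kinases that act above p53. CHEK1 fell by 3.32 (SE 0.43, edgeR adjusted p = 0.000649) and CHEK2 by 1.99 (SE 0.44, adjusted p = 0.0105). CHEK1 stood at 44.5 and 88.1 CPM without erlotinib and 4.38 to 11.9 with it. The repair genes DDB2, which recognises UV lesions, and POLH, a polymerase that copies past them, fell by 1.55 (SE 0.35, adjusted p = 0.0108) and 1.69 (SE 0.47, adjusted p = 0.0257). Among apoptosis targets the death receptor TNFRSF10A fell by 2.73 (SE 0.60, adjusted p = 0.00969) and EI24 by 0.74 (SE 0.21, adjusted p = 0.0294). USP7, which removes ubiquitin from MDM2 and p53, fell by 0.75 (SE 0.20, adjusted p = 0.0221). CHEK2 lost its call without the scrambled library (-1.73) and TNFRSF10A without the untreated one (-2.68). USP7, EI24 and POLH lost theirs without either of these libraries and without the library labelled KDM5A and KDM5B shRNA. EI24 also lost it without the CPI-455 or cDNA library and with DESeq2. In the transduced libraries alone USP7, TNFRSF10A, EI24 and POLH lost their calls, and after thinning USP7, EI24 and DDB2 lost theirs and the other 4 were too sparse to test.

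**Figure D3:**
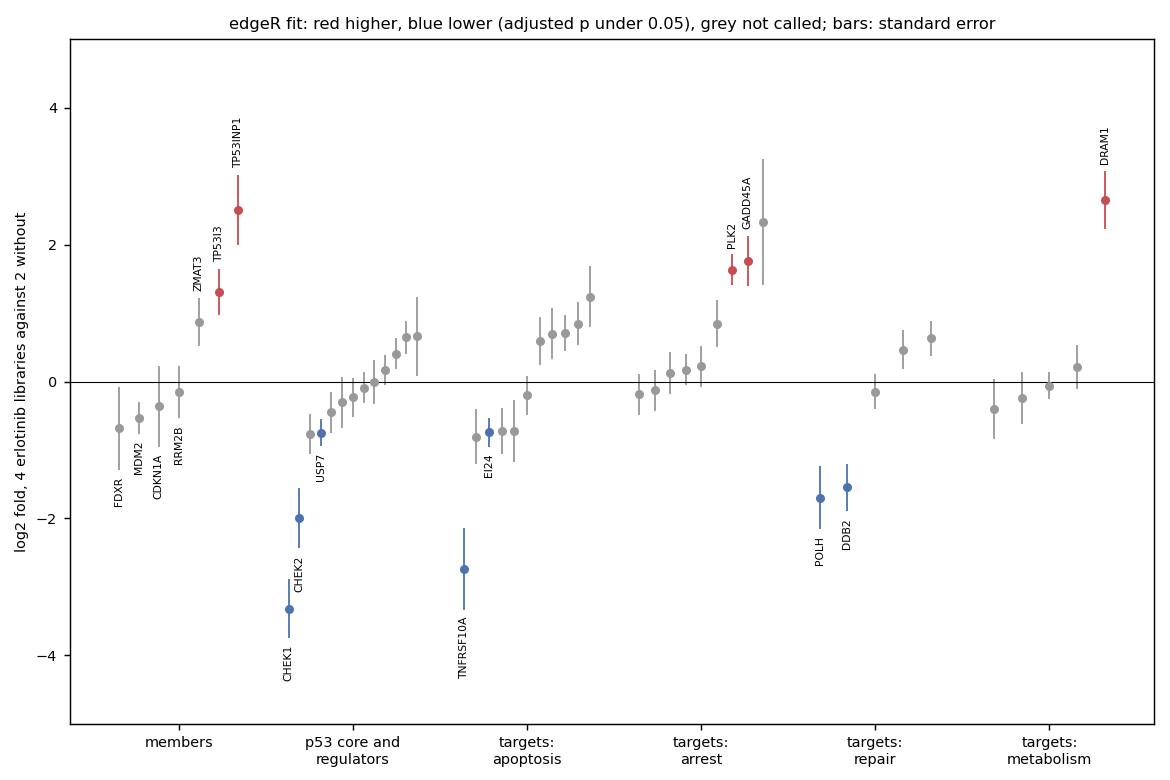
Log2 fold of the 4 erlotinib libraries against the 2 without, by list, with the standard error as bars; red points were called higher, blue lower and grey not called at an edgeR adjusted p under 0.05. Called genes lie on both sides of 0 and most points are grey.

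Since p53 targets such as GDF15 and TP53INP1 also respond to the integrated stress response, genes of its factor ATF4 were set beside them. Of 10 tested, 1 was called higher and 0 lower. This was ATF3, with 2.45 (SE 0.74, edgeR adjusted p = 0.0460), and it is named because of its value. Of the 4 with the most UMIs, ATF4 had a log2 fold of 0.69 (SE 0.23, adjusted p = 0.0507), PHGDH 0.36, CEBPB 0.50 and PSAT1 -0.78. None of these 4 was called, although ATF4 was called higher in 9 alternative fits, with log2 folds from 0.69 to 1.00. Of the 10 tested genes 6 had a log2 fold above 0 and 4 below. The lowest were TRIB3 with -1.79 (SE 0.63) and DDIT4 with -1.36 (SE 0.51). Neither was called, and both are named because of their values.

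Comparisons between 2 libraries have no replicate and were not tested. Their ratios carry exact 95% intervals for counting error, and a gene was counted past 2-fold only where both libraries together held at least 10 UMIs. The first pair had no erlotinib and differed in virus and serum. Its libraries also differed in depth and in barcodes ending in an unread base, so these cannot be told apart. Against untreated cells the scrambled library had 3 of 9 targets past 2-fold lower and 0 higher, against 13.0% and 7.12% of all counted genes, or 20.1% either way. CDKN1A was at 0.382 of the untreated level (0.176 to 0.740), GDF15 at 0.298 (0.078 to 0.823) and TP53INP1 at 0.470 (0.052 to 2.08). TP53INP1's interval included 1. The 2 control libraries thus differed in CDKN1A and GDF15, and every pair below takes 1 or neither of them as its base.

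With CPI-455 and erlotinib, 1 of 9 targets was past 2-fold higher and 3 lower than in untreated cells, against 17.6% and 18.2% of all genes, or 35.8% either way. TP53INP1 was at 4.18 times the untreated level (1.74 to 9.94). CDKN1A was at 0.170 (0.034 to 0.514), GDF15 at 0.221 (0.026 to 0.850) and FAS at 0.252 (0.006 to 1.59), the last resting on 1 UMI. TP53I3 was at 1.82 (1.18 to 2.76) and ZMAT3 at 1.95 (1.13 to 3.28), both with intervals above 1 but short of 2-fold.

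With KDM5A shRNA and erlotinib, 3 of 8 counted targets were past 2-fold higher and 1 lower than in scrambled cells, against 15.4% and 18.2% of all genes, or 33.6% either way. TP53INP1 was at 11.8 times the scrambled level (2.97 to 102), TP53I3 at 3.03 (2.01 to 4.69) and CDKN1A at 2.27 (1.07 to 5.24). FDXR was at 0.355 (0.123 to 0.911). In cells as measured, at median depths of 3319.5 and 3343 UMIs, CDKN1A had a UMI in 6.42% of cells with KDM5A shRNA and 3.04% of scrambled cells, and after thinning to 1000 UMIs only 3 and 2 cells held it, too few for a comparison. The library labelled KDM5A and KDM5B shRNA had 2 of 7 higher and 1 lower, against 17.8% and 19.7%, or 37.5% either way. There TP53INP1 was at 9.81 times (2.14 to 91.1), ZMAT3 at 2.23 (1.10 to 4.60) and FDXR at 0.223 (0.025 to 0.948). With KDM5A cDNA 1 of 6 was higher and 0 lower, against 17.3% and 19.0%, or 36.3% either way. That gene was TP53I3, at 2.71 (1.63 to 4.53). TP53INP1 stood on 7 against 2 UMIs there, too few to count, at a ratio of 7.68 (1.46 to 75.7). These 3 comparisons share the scrambled library, whose 2 UMIs of TP53INP1 set the size of its ratios.

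Erlotinib libraries were also set against each other. KDM5A shRNA against KDM5A cDNA had 2 of 8 targets past 2-fold higher and 1 lower, against 10.2% and 14.1% of all genes, or 24.4% either way. CDKN1A was at 3.45 times the cDNA level (1.07 to 17.7), GDF15 at 3.33 (0.461 to 146) and FDXR at 0.259 (0.084 to 0.753). Erlotinib began 4 days after transduction in the one and 6 days in the other, and the vectors differed, so these cannot be told apart. The library labelled KDM5A and KDM5B shRNA had 0 of 7 higher and 2 lower than KDM5A shRNA, against 9.19% and 5.61%, or 14.8% either way. These were GDF15 and RRM2B, both at 0.489 with intervals that included 1, while TP53I3 was at 0.530 (0.335 to 0.813). CPI-455 against KDM5A cDNA had 0 of 6 higher and 1 lower, against 10.4% and 5.47%, or 15.9% either way. FDXR was at 0.405 (0.121 to 1.23) and TP53I3, short of 2-fold, at 0.602 (0.365 to 0.990).

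In single cells each target was seen rarely. After each cell was thinned to 1000 UMIs, 1769 cells remained (822, 222, 164, 332, 124 and 105 in the order untreated, scrambled, CPI-455, KDM5A shRNA, labelled KDM5A and KDM5B shRNA, KDM5A cDNA). TP53I3 had a UMI in 2.07%, 2.25%, 2.44%, 5.72%, 4.84% and 7.62% of cells in that order, and unthinned in 6.43%, 10.3%, 14.4%, 19.0%, 15.1% and 20.6%. The thinned share of the CPI-455 library was nearly level with those of the 2 libraries without erlotinib and the other 3 were higher. With cells thinned to 500 UMIs the CPI-455 share was 0.495%, below the 1.11% of untreated and 1.14% of scrambled cells. MDM2 had a UMI in 6.20%, 4.50%, 5.49%, 6.02%, 4.03% and 1.90% of thinned cells, with overlapping groups. CDKN1A had 2.07%, 0.901%, 0%, 0.904%, 1.61% and 0%. A count of 0 in the CPI-455 and cDNA libraries allows, by the floor of 3 counts, a share of cells with a UMI of up to 1.83% and 2.86%, and by the exact interval up to 2.22% and 3.45%, so it was not detectable at this depth whether they differed from the rest. TP53INP1 had 0.487%, 0%, 1.22%, 1.81%, 2.42% and 1.90%, and 0 of 222 scrambled cells allows a share with a UMI of up to 1.35% by the floor and 1.65% by the exact interval. All cells are of a single line, so no cell type lacking these genes was there to measure the share that free RNA gives.

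**Figure D4:**
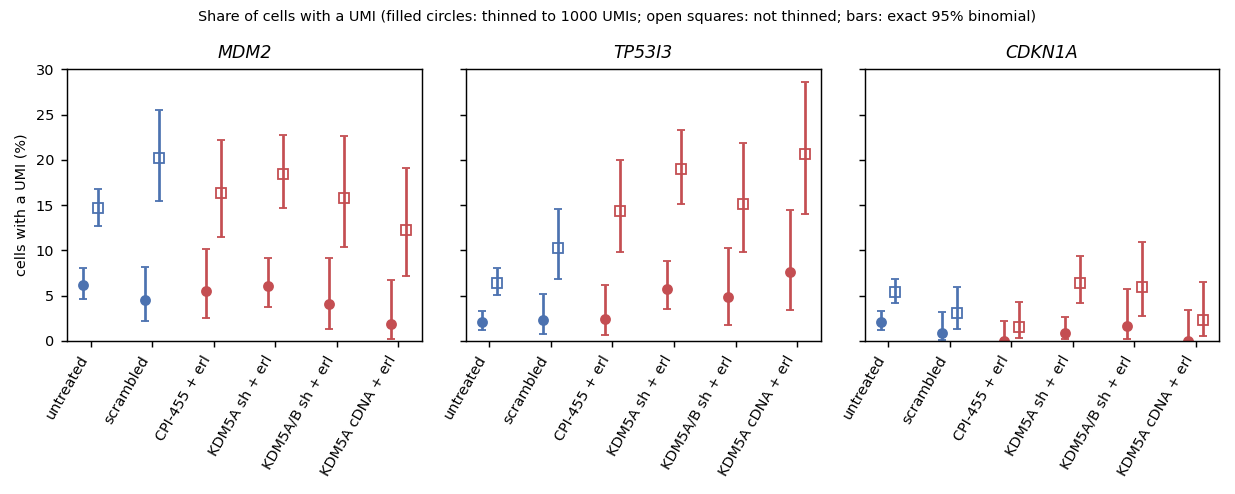
Share of cells with at least 1 UMI of MDM2, TP53I3 or CDKN1A in each library (percent, exact 95% binomial intervals), with filled circles after thinning to 1000 UMIs and open squares as measured. Thinning lowers every share, and TP53I3 is 7.62% of thinned cells with KDM5A cDNA against 2.07% in untreated cells.

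The targets were seldom seen together. At least 1 of the 9 had a UMI in 14.6%, 11.3%, 12.8%, 18.1%, 15.3% and 18.1% of thinned cells in the same order, and no thinned cell held 3 or more. Over all 36 pairs of targets 14 cells held both, where the product of the shares within each library would give 17.4. Unthinned, a cell held up to 5 of them, and 1 untreated cell held 12 UMIs of MDM2. In thinned untreated cells the 17 with a CDKN1A UMI had a mean of 2.12 UMIs of S phase genes and 3.94 of G2 and M genes, against 2.11 and 3.99 in the other 805. The 17 cells with a TP53I3 UMI had 2.59 UMIs of G2 and M genes against 4.02, and the 51 with an MDM2 UMI had 4.78 against 3.94. The counts of such cells in the erlotinib libraries were between 0 and 20. These are values within a library, and cells are not replicates.

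Summed over the 9 genes, the level was 170 CPM in untreated, 141 in scrambled, 155 in CPI-455, 208 in KDM5A shRNA, 152 in the library labelled KDM5A and KDM5B shRNA and 168 in KDM5A cDNA cells. The sums overlapped between libraries with and without erlotinib. Only MDM2 and TP53I3 had at least 10 UMIs in every library, and the genes most like each were found by Pearson's r of log2(CPM + 1) over the 6 libraries among 6118 genes. For MDM2 they were ITPR3 (r = 0.983), CWC27 (0.981) and TSPAN17 (0.979). For TP53I3 they were C12orf76 (0.997), GAS5 (0.993) and UCHL1 (0.983). The 6 points differ in depth and include both control libraries. Picking the highest of 6118 values over 6 points by itself favours a high r, and the values describe likeness only.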

How the data were processed

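Values in the deposited tables of the 6 Drop-seq libraries are raw UMI counts by gene symbol and barcode. The authors used STAR and FastQC with GRCh37.p13 or hg19, per the submitters' processing notes; the counting tool, strand use and choice of barcodes are not given in the sources used here. Genes were taken by symbol. UMIs were summed over kept cells (at least 500 UMIs, at most 20% mitochondrial) and scaled to CPM. Erlotinib was tested with edgeR 4.0.16 (TMM, filterByExpr, robust quasi-likelihood, Benjamini-Hochberg adjustment over all genes tested, common coefficient of variation 0.262). The fit was also run on simulated data that held no KDM5 effects and only large planted changes. That run does not bear on smaller folds or on this mix of libraries. Alternatives used DESeq2 1.42.0 and limma 3.58.1. Intervals are exact Poisson, binomial or conditional Clopper-Pearson intervals at 95%, and they and the floor of 3 counts cover counting error only, as do the depths of 590091 to 3956647 UMIs. Doublets were not called, as 2 cells of the same line cannot be distinguished. Promoter windows came from RefSeq on GRCh38.p14, a different build from the files', and no coordinates were converted. The targets, lists and comparisons were chosen with earlier results of these data known. Named were the 9 targets, MDM4 and PPM1D, the called genes of the wider list (up to 10), RRM1, RRM2, CDKN1B, CDKN1C, the 4 most captured ATF4 genes, and the 3 genes most like a target with at least 10 UMIs in every library and a mean of at least 20 CPM. Overlapping partners were added after their targets' values were seen. A gene that this rule also selects is not reported here.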

Additional observations from a re-analysis of the deposited data

Results flagged for a closer look

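FAS stood at 5.51 CPM in the library labelled KDM5A and KDM5B shRNA, against 1.14 to 1.69 CPM in the other 3 libraries with erlotinib. The gap to the nearest of them was 0.874 of the whole range, above Dixon's 95% critical value for 4 values. The value rests on 4 UMIs, and the 4 libraries are not replicates of a condition. A rate of about 1 in 20 groups marked by chance holds for values drawn from a normal distribution. It does not apply to these counts, since the other 3 libraries held 1 or 2 UMIs each, below the floor of 3 counts. The exact 95% Poisson intervals of the 4 levels overlapped, and no conclusion is drawn from the mark.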

How the results depend on the processing

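No value changed sign with a call. The count of genes called higher was 1046 and ran from 500 to 1176 when each library was left out (500 without the untreated, 639 without the scrambled and 520 without the library labelled KDM5A and KDM5B shRNA, here the double shRNA library), with 479 in the transduced libraries only and 482 after thinning to 1000 UMIs. The count of genes called lower was 1412 and ran from 860 to 1341 (860 without the scrambled and 899 without the double shRNA library), with 856 and 512. Targets called higher were 2, with a range of 1 to 2 (1 without the untreated, 1 without the scrambled library), 1 in the transduced libraries only and 0 after thinning, when 2 targets were tested. Targets called lower were 0 throughout. Other pathway genes called higher were 3, with 5 under limma-voom and 2 to 5 when each library was left out (5 without the untreated, 5 without the KDM5A shRNA library). Those called lower were 7, with 3 to 7 (3 without the untreated, 3 without the scrambled library), 3 in the transduced libraries only and 0 after thinning. Targets past 2-fold with all barcodes kept numbered 2 for KDM5A cDNA against scrambled (1 as reported), 0 for the double shRNA library against KDM5A shRNA (2) and 3 for CPI-455 against cDNA (1). For the last 2 pairs they numbered 1 and 2 at a mitochondrial limit of 10%, and the double shRNA library against KDM5A shRNA gave 1 with cells of at least 1000 UMIs. After thinning they numbered 1 for scrambled against untreated (3), 1 for KDM5A shRNA against scrambled (4), 1 for the double shRNA library against scrambled (3), 2 for cDNA against scrambled (1), 1 for KDM5A shRNA against cDNA (3), 0 for the double shRNA library against KDM5A shRNA (2) and 2 for CPI-455 against cDNA (1). Thinning leaves fewer UMIs and genes to test; the cause of the other changes was not tested. Among single genes and ratios 832 values kept their call or stayed within their error, 31 lost a call, 9 gained one and 71 moved. The gained calls were all of ATF4. Without an expression filter the folds of shared genes shifted by -0.13 on the log2 scale. No paired analysis was possible because each condition has 1 library and all carry the same replicate number. A fit with transduction and serum as a block, chosen after seeing the data, called 869 genes higher and 1367 lower, with 2 targets higher (TP53INP1 2.56, TP53I3 1.14) and 4 and 7 other pathway genes. GDF15 and FAS were below the filter on low counts.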
